A study of Mus musculus with 24 samples.

Results

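The genes described here are 6 transcriptional regulators of T cells, Id2, Id3, Tcf3, Tcf12, Zeb1 and Zeb2, taken by their symbols from a table of 23420 genes, and all 6 were found. RNA was sequenced from CD4 T cells in 24 libraries, 6 from each of 4 states. Every library came from OT2Nur77GFP+/- cells, from mice on a C57/BL6 background. These mice carry the OT-II T cell receptor transgenes (TcraTcrb) and a transgene in which the Nr4a1 promoter drives EGFP/cre, so the control groups share both. Cells of the naive group had been isolated from spleen. A second group, activated naive, received 6 hours of a stimulus that the labels used here leave unnamed. TH1 effector cells had been differentiated from naive cells for 5 days into the interferon-producing helper type. Reactivated TH1 cells had then met antigen-pulsed macrophages for 6 hours, and no group met macrophages without antigen. The age and sex of the mice are not stated, and nothing in the labels ties the 6 libraries of a group to different animals or cultures. The p-values therefore reflect library-to-library spread, which may be technical.

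E proteins are basic helix-loop-helix transcription factors that pair with each other and bind the E-box, a short DNA motif. ID proteins carry the helix-loop-helix but lack the basic region that touches DNA, so that a pair of an ID and an E protein cannot bind. In T cells Tcf3 (which encodes E2A) and Tcf12 (HEB) act in thymic development and keep naive and memory features, while Id2 is known from effector cells and Id3 from naive and long-lived memory cells. ZEB proteins are zinc finger factors, mostly repressors, that bind E-boxes of a narrower kind, and Zeb2 is known to act with T-bet in terminally differentiated effector cells. Zeb1 was described as a repressor of the interleukin 2 gene.

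In mm10, Id2 lies on the minus strand of chromosome 12 (25093799 to 25097140), Id3 on the plus strand of chromosome 4 (136143497 to 136145755), Tcf3 on the minus strand of chromosome 10 (80409514 to 80433647), Tcf12 on the minus strand of chromosome 9 (71842688 to 72111871) and Zeb2 on the minus strand of chromosome 2 (44983632 to 45117395), in GENCODE M21. Exons of coding Zeb2 transcripts share 379 bases with exons of the antisense gene Zeb2os, which is not among the counted genes by that symbol. They share 5 bases with the microRNA gene Mir5129 on the same strand, which is counted. Whether counting used strand is not stated, so reads of Zeb2 and Zeb2os cannot be told apart in the shared bases. For the other 5 genes no exon of the coding transcripts checked overlaps an exon of another annotated gene, and exons of their other transcripts were not checked.

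The start sites of 3 members whose levels moved in different ways are shown for their E-box content. Id2 was higher in all other states than in naive cells, Tcf3 was lowest in activated naive cells, and Zeb2 went from almost no counts to a high level. Each sequence is the part of the 250 bases before a RefSeq start (GRCm38.p6) that lies outside annotated untranslated exons, from 5′ to 3′ on the strand of the gene, and capitals mark the E-box CANNTG.
Id2, chr12:25096254-25096342, minus strand: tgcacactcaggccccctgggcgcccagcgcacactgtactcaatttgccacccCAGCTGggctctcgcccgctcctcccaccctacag
Tcf3, chr10:80433648-80433885, minus strand: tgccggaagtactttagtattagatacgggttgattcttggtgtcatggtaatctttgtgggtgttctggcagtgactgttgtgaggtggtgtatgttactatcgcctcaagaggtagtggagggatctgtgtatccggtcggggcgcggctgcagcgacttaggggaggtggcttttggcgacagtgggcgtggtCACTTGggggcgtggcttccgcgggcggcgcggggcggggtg
Zeb2, chr2:45117443-45117692, minus strand: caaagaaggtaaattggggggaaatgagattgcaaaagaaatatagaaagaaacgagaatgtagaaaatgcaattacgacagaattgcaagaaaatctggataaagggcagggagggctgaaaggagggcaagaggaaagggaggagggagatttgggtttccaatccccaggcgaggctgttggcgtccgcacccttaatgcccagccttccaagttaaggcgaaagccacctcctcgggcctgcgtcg
The Id2 and Tcf3 stretches hold 1 E-box each, CAGCTG and CACTTG, and the Zeb2 stretch holds none. RefSeq windows of 300 bases were listed for 5 members. Of 32851 such windows in the whole table, 72.3% hold CANNTG and 20.2% hold CACCTG, the form that ZEB proteins are known to bind, read on both strands (the second is a special case of the first). None of the 10 windows of the 5 members holds CACCTG or the EGR motif GCGNGGGCG, which 5.55% of all windows hold. The AP-1 motif TGANTCA, which 7.81% of all windows hold, has 2 matches in window 4 of Zeb2 and 1 in window 2 of Tcf12. Zeb2 has 4 windows, of which windows 2 and 3 overlap, and the stretch shown is from window 1. A match is a run of letters and not a measured binding site.

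The counts given to genes ranged from 18457653 to 34262645 per library. The libraries came from 2 sequencing runs, told apart by the flow cell in the names of the deposited tables, with numbers 1 to 3 of each group in run 1 and 4 to 6 in run 2, and within-run values are given beside the results. All 10 markers of CD4 T cells, among them Cd3e, Cd4 and Lat, were above 1 CPM in every group (CPM being counts scaled to a common library size). Their sum ran from 4238 to 4627 CPM in naive, 4473 to 5364 in activated naive, 2870 to 3227 in TH1 effector and 3773 to 4139 CPM in reactivated TH1 libraries. The sum does not show that each marker was stable. From naive to activated naive libraries mean Cd4 went from 925.6 to 131.9 CPM and Zbtb7b from 285.9 to 37.17 CPM. Cd3d, Cd3e, Cd3g and Cd247 were also lower. Cd5 went from 169.1 to 1396 CPM and Cd28 from 322.2 to 663.7 CPM, and Lat and Zap70 were also higher. Of the 14 macrophage markers 1 (Marco) had no count in reactivated TH1 libraries, where the sum was 12.03 to 17.8 CPM, and 7 had none in TH1 effector libraries, where the sum was 3.63 to 5.20 CPM. The sum was 8.12 to 12.7 CPM in naive and 10.2 to 12.04 CPM in activated naive libraries, of cells for which the labels name no macrophages. The 9 B cell markers summed to 5.90 to 32.1 CPM in TH1 effector libraries and to at most 3.84 CPM in the other groups. Dendritic cell markers summed to at most 10.7 CPM in any library and neutrophil markers to at most 2.31 CPM. The 7 genes known from CD8 T and NK cells summed to at most 31.5 CPM in naive, 12.7 in activated naive and 165.3 in TH1 effector libraries. In naive libraries the median sum was 28.5 CPM, most of it from Cd8b1 (mean 26.3 CPM). In reactivated TH1 libraries their median sum was 1072 CPM, nearly all of it from Nkg7 (1021 CPM) and Eomes (54.1 CPM), while Ncr1 and Klrb1c were at 0 and 0.0224 CPM. In these bulk samples fewer cells of a type and less RNA per cell cannot be told apart.

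**Figure D1:**
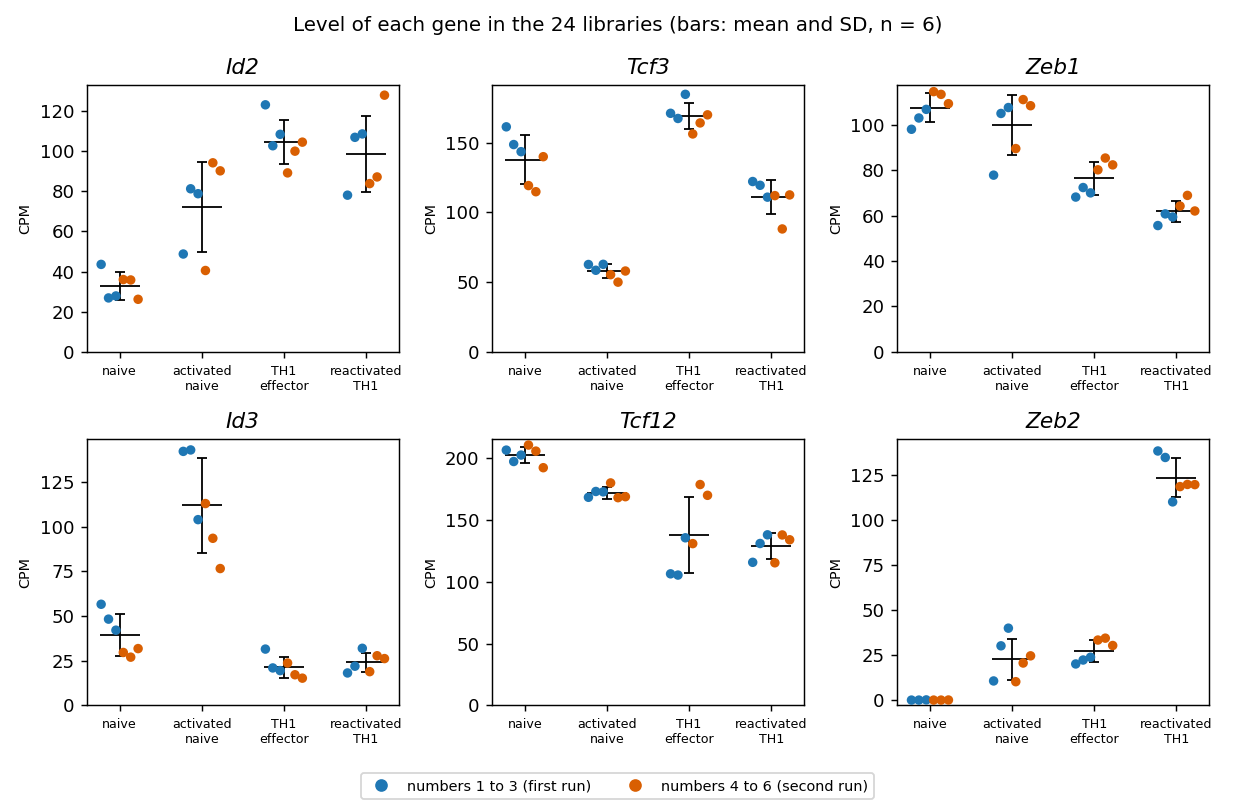
CPM (vertical axes, from 0) of the 6 genes in every library of the 4 groups, with means and SDs (n = 6) as black bars and points coloured by run. Id3 was highest in activated naive libraries (76.6 to 143 CPM), Tcf3 lowest there (49.98 to 62.8 CPM), and Zeb2 highest in reactivated TH1 libraries (110 to 138 CPM).

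Both ID genes were higher in naive cells after 6 hours of stimulation, and they parted in TH1 cells, where Id2 was high and Id3 low. Id2 ran from 26.2 to 43.6 CPM in naive libraries with a median of 31.9, from 40.5 to 94.2 (median 80.0) in activated naive, from 89.2 to 123 (median 104) in TH1 effector and from 78.1 to 128 CPM (median 97.0) in reactivated TH1 libraries. Every TH1 library was above every naive library, whereas activated naive numbers 1 and 4, at 48.8 and 40.5 CPM, came near or into the naive range. The order of the means was naive (32.7 ± 6.91), activated naive (72.3 ± 22.3), reactivated TH1 (98.7 ± 19.0) and TH1 effector (105 ± 11.1 CPM, SD, n = 6 each). Id3 ran from 27.0 to 56.6 CPM in naive (median 37.0), 76.6 to 143 in activated naive (median 108.5), 15.3 to 31.6 in TH1 effector (median 20.3) and 18.2 to 32.0 CPM in reactivated TH1 libraries (median 24.1). All activated naive libraries were above all others, and the naive and TH1 ranges met between 27.0 and 32.0 CPM. Its means were 21.4 ± 5.79 in TH1 effector, 24.2 ± 5.42 in reactivated TH1, 39.3 ± 11.7 in naive and 112 ± 26.6 CPM in activated naive libraries.

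In activated naive against naive libraries, 3 of the 6 genes were higher, 2 were lower and 1 did not pass at an adjusted p of 0.05 (edgeR quasi-likelihood test with Benjamini-Hochberg adjustment over 12584 genes), where 81.9% of all tested genes passed, 41.3% higher and 40.5% lower. Of the 6, 4 had libraries that did not overlap between these groups, against 66.4% of all tested genes. Id2 rose 2.21-fold (1.14 on the log2 scale with an SE of 0.27, adjusted p = 7.49e-06), with log2 values of 1.08 in run 1 and 1.22 in run 2. Id3 rose 2.88-fold (log2 1.53, SE 0.13, adjusted p = 1.88e-08), with 1.39 and 1.71 in the runs.

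In TH1 effector against naive libraries, 3 genes were higher and 3 lower, where 84.9% of all tested genes passed (44.6% higher and 40.3% lower), and the ID genes differed in direction. For 4 of the 6 genes the libraries of these groups did not overlap, against 69.0% of all tested genes. Id2 was 3.20-fold higher (log2 1.68, SE 0.14, adjusted p = 2.82e-08, with 1.80 and 1.58 in the runs). Id3 was 1.81-fold lower (log2 −0.86, SE 0.16, adjusted p = 8.55e-05, with −0.997 and −0.66 in the runs).

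On reactivation of TH1 cells neither ID gene passed the test. Over all 6 genes, 1 was higher, 2 were lower and 3 did not pass, where 79.7% of all tested genes passed (39.9% higher and 39.8% lower), and 2 had libraries that did not overlap, against 59.4%. Id2 had a log2 fold change of −0.084 (SE 0.13, adjusted p = 0.676), with −0.22 in run 1 and 0.045 in run 2. Id3 had 0.20 (SE 0.21, adjusted p = 0.296), with −0.032 and 0.40 in the runs, and it passed without number 1 (log2 0.39, adjusted p = 0.0277). The response of TH1 cells was lower than that of naive cells for both genes, by a test of the difference itself, which 68.0% of all tested genes passed (34.3% higher and 33.7% lower). Of the 6 genes, 1 was higher, 3 were lower and 2 did not pass. This difference was −1.23 for Id2 (SE 0.30, adjusted p = 0.000262, with −1.30 and −1.18 in the runs) and −1.33 for Id3 (SE 0.24, adjusted p = 4.18e-05, with −1.43 and −1.31). The stimulus of the naive cells is not named and that of the TH1 cells was macrophages with antigen, so the state of the cells and the kind of stimulus cannot be told apart.

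In reactivated TH1 against activated naive libraries, 3 genes were higher and 3 lower, where 79.8% of all tested genes passed (43.4% higher and 36.4% lower), and 5 had libraries that did not overlap, against 60.2%. In TH1 effector against activated naive libraries, 2 were higher, 3 lower and 1 did not pass, where 86.9% passed (45.6% higher and 41.2% lower), and 2 did not overlap, against 71.2%. In reactivated TH1 against naive libraries, 2 were higher and 4 lower, where 87.6% passed (47.9% higher and 39.8% lower), and 4 did not overlap, against 75.4%. Id3 was 4.55-fold lower in reactivated TH1 than in activated naive libraries (log2 −2.19, SE 0.18, adjusted p = 8.56e-11, runs −2.42 and −1.97). It was 5.22-fold lower in TH1 effector than in activated naive libraries (log2 −2.38, SE 0.18, adjusted p = 1.13e-11, runs −2.39 and −2.36). In reactivated TH1 against naive libraries it was 1.58-fold lower (log2 −0.66, SE 0.16, adjusted p = 0.00117), with −1.03 in run 1 and −0.26 in run 2, which alone did not pass (0.219). Id2 was 1.45-fold higher in TH1 effector than in activated naive libraries (log2 0.53, SE 0.24, adjusted p = 0.00962), but not past the threshold in the second run alone (0.275, runs 0.72 and 0.36). Its 1.37-fold difference between reactivated TH1 and activated naive libraries (log2 0.45, SE 0.26, adjusted p = 0.0285) passed in neither run alone (0.0692 and 0.241, runs 0.50 and 0.40) and was lost without number 2, 3, 4 or 6 (0.0587, 0.0699, 0.0847 and 0.0506). Id2 was 3.02-fold higher in reactivated TH1 than in naive libraries (log2 1.59, SE 0.18, adjusted p = 5.26e-08, runs 1.58 and 1.63).

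Of the E protein genes, Tcf3 fell on stimulation in both cell states and Tcf12 in naive cells. Tcf3 ran from 115 to 161.3 CPM in naive (median 142), 49.98 to 62.8 in activated naive (median 58.2), 156 to 185 in TH1 effector (median 169) and 88.1 to 122 CPM in reactivated TH1 libraries (median 112). Activated naive libraries lay below all others, and all reactivated TH1 libraries lay below all TH1 effector libraries. The order of its means was activated naive (57.9 ± 4.81), reactivated TH1 (111 ± 12.01), naive (138 ± 17.8) and TH1 effector (169 ± 9.37 CPM), and each of the 6 pairs passed the test. It was 2.38-fold lower after stimulation in naive cells (log2 −1.25, SE 0.062, adjusted p = 8.31e-16, with −1.31 and −1.17 in the runs) and 1.53-fold in TH1 cells (log2 −0.61, SE 0.068, adjusted p = 1.92e-09, with −0.60 and −0.63). The fall in TH1 cells was the smaller one, with a difference of 0.64 (SE 0.092, adjusted p = 5.81e-07, runs 0.71 and 0.54).

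Tcf3 was 1.23-fold higher in TH1 effector than in naive libraries (log2 0.30, SE 0.058, adjusted p = 1e-04, runs 0.24 and 0.39), and the libraries overlapped, naive number 1 reaching 161.3 CPM and TH1 effector number 4 being at 156 CPM. It was 1.24-fold lower in reactivated TH1 than in naive libraries (log2 −0.31, SE 0.080, adjusted p = 5.22e-05, runs −0.36 and −0.24). Against activated naive libraries it was 2.92-fold higher in TH1 effector (log2 1.55, SE 0.045, adjusted p = 9.61e-18, runs 1.55 and 1.56) and 1.92-fold higher in reactivated TH1 libraries (log2 0.94, SE 0.071, adjusted p = 6.44e-13, runs 0.95 and 0.93).

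Tcf12 had a narrower span. It ran from 192 to 210 CPM in naive (median 204), 167.8 to 180 in activated naive (median 170.5), 105 to 178 in TH1 effector (median 133) and 115 to 138 CPM in reactivated TH1 libraries (median 132). Naive libraries lay above all others, and the TH1 effector libraries were the most spread, with run means of 116 and 160 CPM. The order of its means was reactivated TH1 (129 ± 10.5), TH1 effector (138 ± 30.9), activated naive (172 ± 4.53) and naive (202 ± 6.68 CPM). It fell 1.18-fold on stimulation of naive cells (log2 −0.24, SE 0.028, adjusted p = 0.0170), with −0.25 and −0.21 in the runs, of which the second did not pass (0.0872). In TH1 effector against naive libraries it was 1.48-fold lower (log2 −0.57, SE 0.094, adjusted p = 2.32e-06), with −0.77 in run 1 and −0.35 in run 2.

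Reactivation of TH1 cells left Tcf12 short of the threshold (log2 −0.089, SE 0.11, adjusted p = 0.363), and the runs differed in direction, 0.12 (0.262) in the first and −0.29 (0.0256) in the second. The difference between the TH1 and naive responses was 0.15 (SE 0.11, adjusted p = 0.304), with 0.36 (0.0245) in run 1 and −0.079 (0.686) in run 2. Against activated naive libraries Tcf12 was 1.26-fold lower in TH1 effector (log2 −0.33, SE 0.093, adjusted p = 0.00145, runs −0.52 and −0.14, the second not past the threshold at 0.238) and 1.33-fold lower in reactivated TH1 libraries (log2 −0.42, SE 0.057, adjusted p = 0.000146, runs −0.41 and −0.43). In reactivated TH1 against naive libraries it was 1.57-fold lower (log2 −0.65, SE 0.059, adjusted p = 2.03e-07, runs −0.66 and −0.63).

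**Figure D2:**
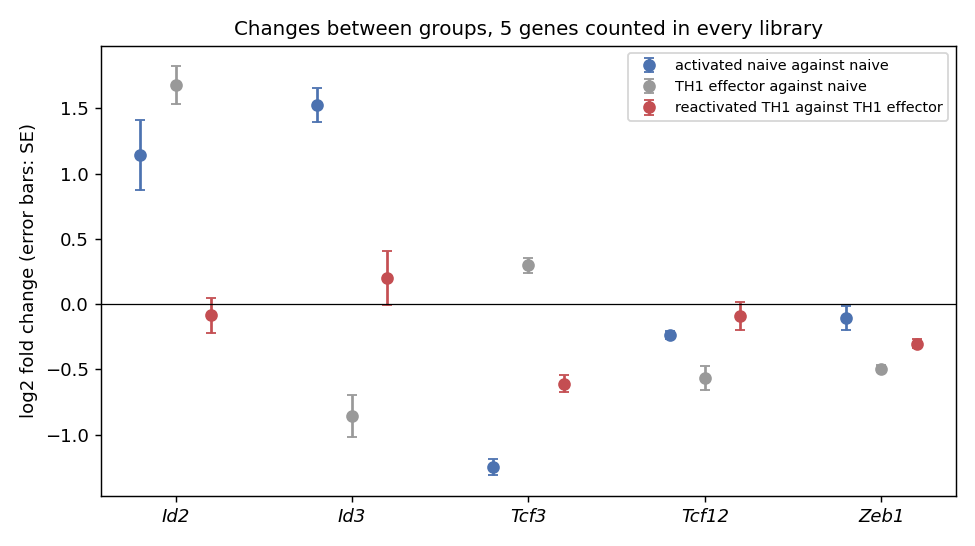
Log2 fold changes (vertical axis) of the 5 genes with counts in every library, with SEs, for stimulation of naive cells (blue), TH1 effector against naive cells (grey) and reactivation of TH1 cells (red). Tcf3 lies below 0 for both stimulations (−1.25 and −0.61), whereas Id2 and Id3 lie at 1.14 and 1.53 for stimulation of naive cells and at −0.084 and 0.20, not past the threshold, for reactivation of TH1 cells.

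The ZEB genes went in opposite directions, Zeb2 from almost no transcripts in naive cells to a high level in reactivated TH1 cells and Zeb1 down in TH1 cells. Zeb2 had 4 counts in all naive libraries, 3 in number 3 and 1 in number 6. It ran from 10.2 to 40.0 CPM in activated naive (median 22.6), 20.1 to 34.4 in TH1 effector (median 27.1) and 110 to 138 CPM in reactivated TH1 libraries (median 120). The activated naive and TH1 effector ranges overlapped, and both lay apart from the naive and the reactivated TH1 libraries. The means were 0.0256 ± 0.0440, 22.7 ± 11.5, 27.4 ± 6.10 and 124 ± 10.8 CPM.

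From summed counts, Zeb2 was 838 times as high in activated naive as in naive libraries (95% counting interval 327 to 3080), 960 times in TH1 effector (375 to 3530) and 4540 times in reactivated TH1 libraries (1770 to 16700). These intervals cover counting error only. The 3 comparisons passed the test (adjusted p = 1.04e-12, 5.86e-13 and 2.96e-15). Fitted log2 fold changes were 9.47, 9.74 and 11.92 (SE 0.42, 0.25 and 0.25), with 9.40 and 9.75, 9.15 and 10.55, and 11.65 and 12.44 in the runs. Without number 3, which holds 3 of the 4 naive counts, they went to 10.49, 11.02 and 13.21. The SEs come from log2 CPM with a prior count of 2 added, which evens out the naive values. They therefore understate the uncertainty that comes from the 4 naive counts. Zeb2 rose 4.52-fold on reactivation of TH1 cells (log2 2.18, SE 0.069, adjusted p = 9.01e-08, with 2.50 and 1.89 in the runs). TH1 effector and activated naive libraries did not differ past the threshold (log2 0.27, SE 0.35, adjusted p = 0.323), the runs being at −0.25 (0.554) and 0.80 (0.00768). In reactivated TH1 against activated naive libraries Zeb2 was 5.45-fold higher (log2 2.45, SE 0.35, adjusted p = 1.76e-08, runs 2.26 and 2.69).

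As a log2 change the response of TH1 cells was below that of naive cells by 7.29 (log2 −7.29, SE 0.43, adjusted p = 3.04e-08, runs −6.90 and −7.86), a value that rests on the 4 naive counts. Its SE understates the uncertainty from these counts in the same way. On the scale of CPM the order was the other way round, with means 22.7 CPM apart in naive cells and 96.3 CPM apart in TH1 cells.

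Macrophages are known to express Zeb2, and reactivated TH1 cells had been cultured with them. The macrophage gene Lyz2 was at 4.58 to 7.23 CPM in these libraries and at most 0.137 CPM in TH1 effector libraries. C1qb averaged 1.503 CPM, Csf1r 0.724 CPM and Adgre1 (listed by its older symbol Emr1) 0.686 CPM, and none of these genes had a count in TH1 effector libraries. The sum of all 14 markers was 12.03 to 17.8 CPM against 110 to 138 CPM of Zeb2, and Zeb2 was at 20.1 to 34.4 CPM in TH1 effector libraries, where that sum was 3.63 to 5.20 CPM. Naive libraries, with a sum of 8.12 to 12.7 CPM, held at most 0.107 CPM of Zeb2. Most of that naive sum came from Cd68 (5.65 CPM) and Itgam (3.44 CPM), with Lyz2 at 0.214 CPM and no count of C1qb. The naive sum is therefore no measure of macrophages. The part of macrophages in the rise of Zeb2 was not tested.

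**Figure D3:**
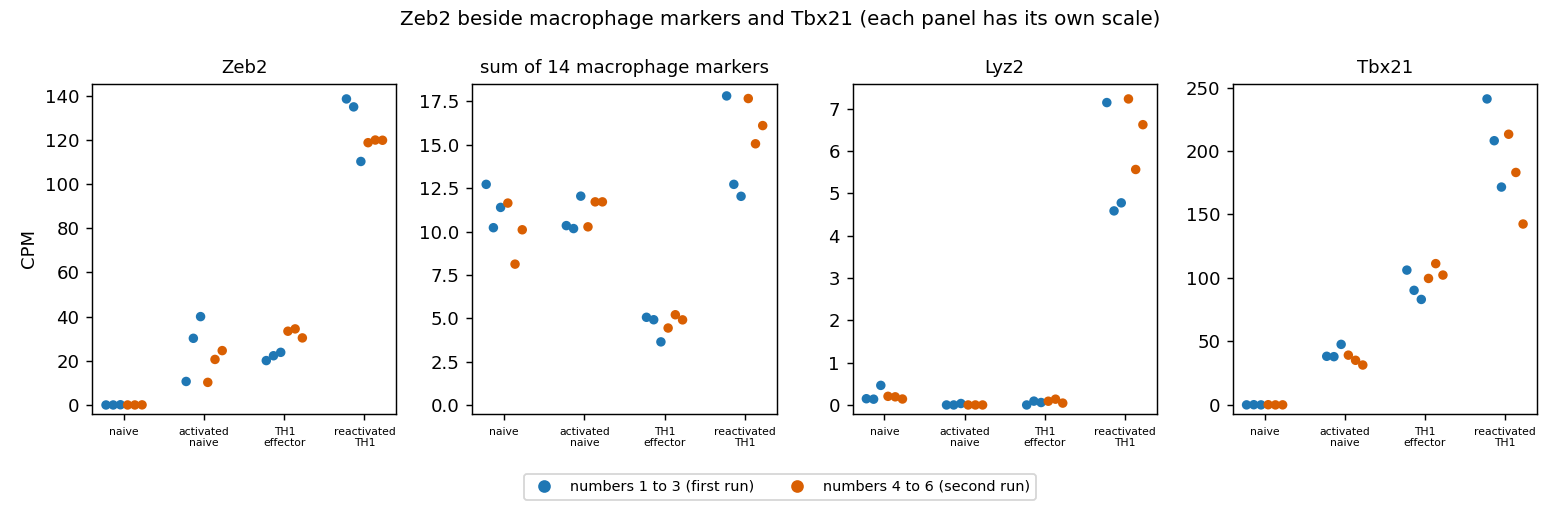
CPM of Zeb2, of 14 macrophage markers summed, of the macrophage gene Lyz2 and of Tbx21 in every library, each panel with its own vertical scale from 0 and points coloured by run. Lyz2 reached 7.23 CPM in reactivated TH1 libraries, where Zeb2 lay between 110 and 138 CPM, and TH1 effector libraries with at most 0.137 CPM of Lyz2 held 20.1 to 34.4 CPM of Zeb2.

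Zeb1, on chromosome 18, ran from 97.9 to 114 CPM in naive (median 108), 77.8 to 111 in activated naive (median 106), 68.1 to 85.3 in TH1 effector (median 76.2) and 55.6 to 68.8 CPM in reactivated TH1 libraries (median 61.4). All TH1 libraries lay below all naive libraries, and activated naive libraries other than numbers 1 and 4 (77.8 and 89.5 CPM) were within the naive range. The order of the means was reactivated TH1 (61.8 ± 4.50), TH1 effector (76.3 ± 7.12), activated naive (99.8 ± 13.2) and naive (107 ± 6.31 CPM). Stimulation of naive cells left it short of the threshold (log2 −0.11, SE 0.092, adjusted p = 0.137, runs −0.094 and −0.10), but it passed with scaling by library size only (log2 −0.27, adjusted p = 0.000987), which lowers the median of all genes in this comparison by 0.167 (−0.167 on the log2 scale). It was 1.41-fold lower in TH1 effector than in naive libraries (log2 −0.50, SE 0.027, adjusted p = 1.17e-07, runs −0.52 and −0.45). It was 1.23-fold lower after reactivation (log2 −0.30, SE 0.034, adjusted p = 0.000164, runs −0.29 and −0.32).

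The difference between the 2 responses of Zeb1 was −0.20 (SE 0.098, adjusted p = 0.0601, runs −0.20 and −0.22). It passed with the replicate number as a block (−0.19, adjusted p = 0.0372), with DESeq2 (−0.24, 0.0172) and without number 1 (−0.24, 0.0182) or 4 (−0.24, 0.0347). Zeb1 was 1.74-fold lower in reactivated TH1 than in naive libraries (log2 −0.80, SE 0.036, adjusted p = 1.40e-11, runs −0.81 and −0.77). Against activated naive libraries it was 1.62-fold lower in reactivated TH1 (log2 −0.69, SE 0.094, adjusted p = 4.16e-10, runs −0.72 and −0.67) and 1.31-fold lower in TH1 effector libraries (log2 −0.39, SE 0.092, adjusted p = 4.47e-06, runs −0.42 and −0.35).

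Id2, Zeb1 and Zeb2 were lowest in the same 2 activated naive libraries, numbers 1 and 4. Zeb2 was at 10.6 and 10.2 CPM there and at 20.6 to 40.0 CPM in the other 4. Egr2, an early target of receptor signalling, was at 726 and 805 CPM in these libraries, above 528 to 577 CPM in the others. With these numbers dropped, a choice made once their values were known, Id2 rose by 1.55 and Zeb2 by 9.32 on stimulation of naive cells on the log2 scale, and Zeb1 had −0.014 (adjusted p = 0.821).

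Levels of different genes were compared per kb of exon, from the union of coding transcripts in GENCODE M21, since longer transcripts give more reads. In naive libraries Tcf3 (43.0 CPM per kb) was the highest of the 6, followed by Id3 (30.7), Tcf12 (29.8), Zeb1 (18.5), Id2 (13.4) and Zeb2 (0.00224 CPM per kb). In activated naive libraries Id3 (87.7 CPM per kb) led, followed by Id2 (29.6), Tcf12 (25.3), Tcf3 (18.1), Zeb1 (17.2) and Zeb2 (1.98). In TH1 effector libraries Tcf3 (52.7 CPM per kb) and Id2 (42.9) led, and in reactivated TH1 libraries Id2 (40.5) and Tcf3 (34.6). Neighbours that lie close in these orders, such as Id3 and Tcf12 in naive libraries, are not separated given SDs of 9.19 and 0.984 CPM per kb.

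The ratio of Id2 to Id3 per kb was 0.292 to 0.695 in naive and 0.180 to 0.617 in activated naive libraries. In TH1 effector libraries it was 1.97 to 3.58 and in reactivated TH1 libraries 1.64 to 2.55, so that Id3 led in every naive and activated naive library and Id2 in every TH1 library, also with the length of the longest transcript. Tcf3 was above Tcf12 per kb in all libraries of 3 groups (1.18 to 1.66 in naive, 1.95 to 3.41 in TH1 effector and 1.36 to 2.24 in reactivated TH1) and below it in all activated naive libraries (0.631 to 0.789). Zeb2 relative to Zeb1 was at most 0.000507 in naive, 0.0580 to 0.189 in activated naive, 0.149 to 0.211 in TH1 effector and 0.883 to 1.26 in reactivated TH1 libraries. Which of the ZEB genes was higher there depended on the length, since with the longest transcript the ratio was 1.11 to 1.58. Both ID genes summed over both E protein genes gave 0.496 to 0.771 in naive, 2.26 to 3.32 in activated naive, 0.703 to 1.09 in TH1 effector and 0.839 to 1.33 in reactivated TH1 libraries. Activated naive libraries thus lay apart from the others in this ratio of transcripts, which says nothing of protein amounts.

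**Figure D4:**
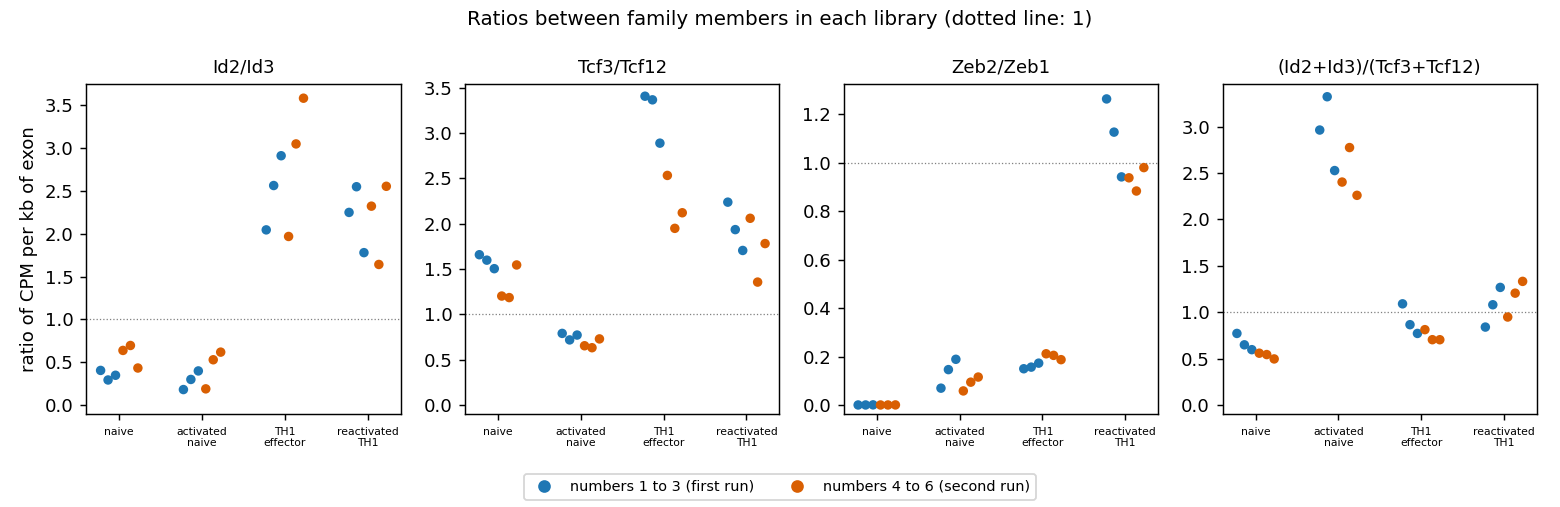
Ratios of CPM per kb of exon (vertical axes) between Id2 and Id3, Tcf3 and Tcf12, Zeb2 and Zeb1, and the summed ID and E protein genes, in every library, coloured by run, with a dotted line at 1. The ID to E protein ratio was 2.26 to 3.32 in activated naive libraries and at most 1.33 in the others.

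Among 9608 other tested genes with at least 10 CPM in a group, the 3 most like each member were found by the root-mean-square difference of log2 CPM, centred per gene, over the 24 libraries. For Id2 they were Slc16a6 (0.269), Sfxn1 (0.279) and Zfp940 (0.299), and for Id3 Rabggta (0.306), Ccdc9 (0.346) and 2310003H01Rik (0.347). For Tcf3 they were Htatip2 (0.152), Kcnab2 (0.155) and Zfp414 (0.160). Secisbp2l (0.128), Tmem62 (0.132) and Gatad2b (0.136) were the nearest to Tcf12, and Ncoa6 (0.132), Snx4 (0.141) and Lyrm2 (0.141) to Zeb1. The nearest to Zeb2 were more distant, Tnfrsf9 (0.621), Srxn1 (0.695) and Tbx21 (0.724), the last being the gene of T-bet. This distance grows with the range of a gene, which was widest for Zeb2, so it does not show Zeb2 to be less like other genes. The Tbx21 means were 0.116 CPM for naive cells and 38.3 CPM after their activation, then 98.8 and 193 CPM for TH1 effector and reactivated cells.

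Among 21 other helix-loop-helix genes and their bridging partners, 11 had enough counts to be tested. On stimulation of naive cells 2 were higher and 4 lower (median log2 0.495, or 0.146 leaving out genes with at most 3 counts in both groups, against 0.00464 over all genes). Run 1 alone gave 1 higher and 4 lower, and leaving out numbers 1 and 4 gave 4 and 4. In TH1 effector against naive libraries 7 were higher and 3 lower (median 2.90 against 0.0565), and on reactivation 5 were higher and 4 lower (0.0369 against −0.00227). Of all tested genes 81.9%, 84.9% and 79.7% passed in these 3 comparisons. Bhlhe40, a helix-loop-helix repressor of activated T cells, went from 0.843 CPM in naive to 234.7 in activated naive and 722 CPM in TH1 effector libraries (adjusted p = 6.51e-15 and 7.53e-16). Ldb1, which bridges LMO proteins and their partners, fell from 520.0 to 126 CPM on stimulation of naive cells (adjusted p = 5.76e-21) and was at 237.5 CPM in TH1 effector libraries (1.15e-15). Twist1, a helix-loop-helix gene known to restrain TH1 inflammation, had no count in naive libraries, was at least 109-fold higher in TH1 effector libraries than 3 counts over the naive group would give, and rose from 2.21 to 15.5 CPM on reactivation (2.26e-12). Lmo4 fell from 20.1 to 10.5 CPM there (4.69e-11). Id4, Tcf21, Twist2, Nhlh2 and Ldb2 had no count in any library. The third E protein gene, Tcf4, followed Tcf3 in direction on stimulation, from 17.9 to 8.73 CPM in naive cells and from 37.1 to 20.5 CPM in TH1 cells (3.36e-08 and 6.45e-07). It was picked from the list after its values were seen.

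Of 16 cofactors known to work with E proteins or ZEB proteins, 14 were tested. On stimulation of naive cells 7 were higher and 5 lower (median log2 0.293), in TH1 effector against naive libraries 3 and 9 (−0.268) and on reactivation 8 and 4 (0.258). Over all tested genes 81.9%, 84.9% and 79.7% passed, with medians of 0.00464, 0.0565 and −0.00227. Kat2b, a histone acetyltransferase, fell from 154 to 14.4 CPM in naive cells and from 53.5 to 28.1 CPM in TH1 cells (adjusted p = 6.95e-18 and 2.01e-07). Chd4, the remodelling ATPase of the NuRD complex, rose in both, from 739 to 1426 and from 668 to 1234 CPM (4.47e-16 and 4.36e-15). Between TH1 effector and naive libraries Hdac1 was 1.36-fold higher (6.53e-07) and Crebbp, which encodes the coactivator CBP, 3.27-fold lower (8.64e-18).

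All 20 genes listed as regulators of these families were tested. On stimulation of naive cells 12 were higher and 5 lower (median log2 0.531), in TH1 effector against naive libraries 8 and 11 (−0.482) and on reactivation 11 and 7 (0.424). The shares of all tested genes that passed were 81.9%, 84.9% and 79.7%, with medians of 0.00464, 0.0565 and −0.00227. Tbx21 rose from 0.116 to 38.3 CPM in naive cells and Stat4, which transmits interleukin 12 signals, fell from 145 to 29.1 CPM (adjusted p = 1.19e-21 and 1.68e-15). Il12rb2, a chain of the interleukin 12 receptor, was at 0.654 CPM in naive and 889 CPM in TH1 effector libraries (1.21e-22), where the signalling inhibitor gene Smad7 was 6.33-fold lower (9.92e-17). On reactivation Egr2 rose from 4.70 to 354 CPM (5.66e-17) and Il12rb2 fell to 288 CPM (3.11e-11). EGR factors are known to raise Id3 after receptor signals. On stimulation of naive cells Egr1 rose from 82.9 to 1007 CPM, Egr2 from 4.33 to 617 CPM and Egr3 from 4.17 to 98.1 CPM (4.65e-08, 2.92e-18 and 2.39e-11). On reactivation Egr1 went from 44.6 to 61.2 CPM, not past the threshold (0.229), and Egr3 rose from 1.64 to 14.4 CPM (4.21e-08).

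Of 16 genes linked to E proteins in T cells, 12 were tested. Counts were 7 higher and 4 lower on stimulation of naive cells (median log2 0.716), 7 and 5 in TH1 effector against naive libraries (0.799) and 4 and 5 on reactivation (−0.377). Over all tested genes 81.9%, 84.9% and 79.7% passed, with medians of 0.00464, 0.0565 and −0.00227. Cdkn1a, the cell cycle inhibitor p21, was at 0.156 CPM in naive, 111 in activated naive and 182 CPM in TH1 effector libraries (adjusted p = 6.19e-17 and 2.36e-17). Dtx1, a Notch pathway gene, went from 200.1 CPM in naive to 1.53 in activated naive and 0.925 CPM in TH1 effector libraries (8.28e-24 and 8.21e-24). On reactivation the cytokine signalling inhibitor Socs3 fell from 108 to 15.7 CPM (2.15e-14). The recombinase gene Rag2 had no count in any library.

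Of 17 genes linked to ZEB proteins, 14 were tested. On stimulation of naive cells 7 were higher and 6 lower (median log2 0.250), in TH1 effector against naive libraries 2 and 6 (−0.652) and on reactivation 6 and 4 (0.539). The shares of all tested genes that passed were 81.9%, 84.9% and 79.7%, with medians of 0.00464, 0.0565 and −0.00227. Il2 had no count in naive libraries, was at least 774-fold higher in activated naive libraries, and rose from 0.0571 to 409 CPM on reactivation (adjusted p = 2.87e-11 and 1.61e-14). The interleukin 7 receptor gene Il7r fell from 420 to 1.67 CPM in naive cells (2.98e-22). Gzmb, the gene of granzyme B, was at 0.0260 CPM in naive and 864 CPM in TH1 effector libraries (3.97e-15), where Tcf7, the gene of TCF-1, was 8.82-fold lower (2.83e-09).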

How the data were processed

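Counts per gene were deposited by the authors as 1 table per library, in whole numbers and not normalised. STAR, HTSeq, DESeq2 and the build mm10 are listed, per the submitters' processing notes, without roles or versions, and neither annotation nor strand setting is given in the sources used here. Rows for reads given to no gene (no feature, 13.2% to 24.5%, ambiguous, 0.706% to 1.25%, and more than 1 place, 5.41% to 7.83%) were left out.

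Tests were run with edgeR 4.0.16 under R 4.3.3, beside limma 3.58.1 and statmod 1.5.0. The filterByExpr rule kept 12584 genes including all 6 members, and libraries were scaled with TMM factors. A robust quasi-likelihood model with group and run was fitted to all 24 libraries, and 6 pairs of groups and the difference between the 2 responses were tested with a threshold of 0.05 on the Benjamini-Hochberg adjusted p over all tested genes. Adjusted p-values are from edgeR unless DESeq2 (1.42.0) is named. SEs come from log2 CPM, with a prior count of 2 added, within group and run, and are not those of the fitted model. On simulated counts for activated naive against naive libraries (12584 genes), 39, 42, 47 and 50 of 50 genes changed 1.5-, 2-, 4- and 8-fold were recovered, and 11 of 12384 unchanged genes were called. Few genes were changed in that simulation, and it held no run effect and no link between libraries of the same number. In the data 81.9% of tested genes passed this comparison, so the simulated rates need not hold for the reported tests.

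Deviations from group means correlated between libraries of the same number in all 36 pairs (0.106 to 0.430, or 0.0790 to 0.419 with run removed), so the libraries were treated as paired in an alternative fit with the number as a block. The sample titles carry the numbers M1 to M6 across the 4 groups, without saying what they mark, and the fit behind the reported values does not use them. No 2 libraries of a group were alike within sampling noise (lowest chi-square per degree of freedom 9.06).

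The members and lists were chosen with earlier results of these data known. The text names all 6 members, the 3 genes most like each, and from each list of related genes the largest rise and fall past the threshold with at least 10 CPM and no overlap of libraries, in the first 3 comparisons; 2 genes that this rule selects are not reported here, and genes outside it were named after their values were seen or as markers. Medians and counts of lists are over tested genes. Alternatives were library size or RLE scaling, DESeq2, other filters, other models, single runs, the compared groups alone and each number left out.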

Additional observations from a re-analysis of the deposited data

Results flagged for a closer look

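One library stood apart from the other 5 of its group by a gap test on log2 CPM: Tcf3 in reactivated TH1 number 5, at 88.1 CPM. Chance gives such a library in about 1 in 20 groups of 6, and 24 groups were checked, so 1 is about what chance gives. The response to stimulation differed between TH1 and naive cells, by the test of the difference itself, for Id2 (log2 −1.23), Id3 (−1.33), Tcf3 (0.64) and Zeb2 (−7.29). That of Zeb2 rests on 4 naive counts.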

How the results depend on the processing

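Of 42 results on members (6 genes in 7 comparisons), 35 passed the threshold, where 68.0% to 87.6% of all tested genes passed, depending on the comparison. Of these 35, 30 kept direction and call in every alternative run, scaling included. The counts of all genes past the threshold stayed within 1.5 times. Of these 42, the replicate block changed the call of 1, the difference of responses of Zeb1 (−0.19, adjusted p = 0.0372). With the block 1 more listed gene was lower in each of 3 counts, 6 linked to E proteins on reactivation, and 7 and 5 linked to ZEB proteins in TH1 effector against naive and on reactivation. List counts also moved with scaling. Genes linked to E proteins on reactivation became 4 higher and 7 lower with RLE factors or DESeq2, and 3 and 7 with library size only. The difference of responses of Zeb1 also passed with DESeq2 (−0.24), RLE factors (−0.24), a filter of 10 CPM (−0.22) and without numbers 1 and 4 (−0.29), and ran from −0.24 to −0.16 with 1 number left out. Scaling by library size alone made calls of Zeb1 in activated naive against naive (−0.27) and Tcf12 on reactivation (−0.21). In the first run alone Id2 in reactivated TH1 against activated naive lost its call (0.50), Tcf12 gained one in the difference of responses (0.36), and signs turned for Id3 (−0.032) and Tcf12 (0.12) on reactivation and for Zeb2 in TH1 effector against activated naive (−0.25). In the second run alone calls were lost for Tcf12 in activated naive against naive (−0.21), Id2 (0.36) and Tcf12 (−0.14) in TH1 effector against activated naive, Id2 in reactivated TH1 against activated naive (0.40) and Id3 in reactivated TH1 against naive (−0.26). There Tcf12 on reactivation (−0.29) and Zeb2 in TH1 effector against activated naive (0.80) passed, and signs turned for Id2 on reactivation (0.045) and the difference of Tcf12 (−0.079). A run alone has 3 libraries a group. Id2 in reactivated TH1 against activated naive was also lost with no filter (0.42) and in a fit of those groups only (0.42), and ran from 0.33 to 0.57 with 1 number left out. On reactivation, leaving out 1 number gave −0.17 to 0.027 for Id2 and 0.084 to 0.39 for Id3. A further 2 alternatives were chosen after the data were seen. Without numbers 5 and 6, Id3 (−0.10) and Tcf12 (0.048) on reactivation turned sign and the difference of Tcf12 passed (0.31). Without numbers 1 and 4, Id2 on reactivation (0.045) and Zeb2 in TH1 effector against activated naive (−0.096) turned sign and Id3 on reactivation passed (0.58). The causes were not tested. Where Zeb2 is set against naive cells, the 4 counts limit its precision.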
